A study of Mus musculus with 28 samples.

Results

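The nuclear-encoded subunits of oxidative phosphorylation were followed in mouse liver across 5 diets. The members are the genes whose name on the array begins as those of the subunits of complex I (Nduf), complex II (Sdh), complex III (Uqc), complex IV (Cox4 to Cox8 families) or complex V (Atp5). Membership was set by name and not by any measured value, although earlier results of these data were known when the members were chosen. The array names 84 such genes with 122 probes: 36 of complex I, 4 of complex II, 8 of complex III, 19 of complex IV and 17 of complex V. The whole array holds 27729 genes, of which 21862 were tested. Of the 84 members 82 passed the filter on dim probes, and 81 were well above background on all 28 arrays. Cox7b2 and Cox8c were left out, and Cox4i2 was well above background on 18 arrays. Of the members, 4 are not subunits of these complexes under their current names: Uqcc1 (an assembly factor of complex III), Emc8 (listed as Cox4nb, a part of a membrane complex of the endoplasmic reticulum), Dmac2l (listed as Atp5s) and Dmac2 (listed as Atp5sl). Ndufa4 is counted with complex I by its name, although it is now placed in complex IV.

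Oxidative phosphorylation takes electrons from NADH at complex I and from succinate at complex II, passes them through ubiquinone, complex III and cytochrome c to oxygen at complex IV, and uses the proton gradient so formed to make ATP at complex V. Most subunits are encoded in the nucleus, and a small set of core subunits is encoded in mitochondrial DNA. Liver cells are rich in mitochondria, which burn fatty acids there, and fat overload of the liver is often studied for its effect on them. Nuclear respiratory factors, the ETS factor GABP, YY1 and the estrogen-related receptors with their coactivator Ppargc1a are known regulators of these genes.

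Livers came from male C57/6J mice that were 7 weeks old at the start and 33 weeks old after 26 weeks on the diet. The groups were standard diet (labelled SD, 5 livers), a high fat diet (HFD, 6 livers), HFD with 0.4% quercetin (HQ, 5 livers), HFD with 0.4% resveratrol (HR, 6 livers), and HFD with 0.2% of each compound (HQR, 6 livers). Quercetin and resveratrol are plant polyphenols. Mice carried no named mutation. The plan held 6 mice in each group, and 2 RNA samples were left out as degraded. Each liver was hybridised to its own 1-colour array, on 9 slides scanned on 4 days.

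A level is the log2 signal of a gene minus that array's 75th percentile, so 0 stands for the percentile itself, and differences are on the log2 scale with their standard error (SE) from limma. Levels of different genes come from different probes and are not compared with each other. Between 59.4% and 82.1% of probes were well above background on an array, and the 75th percentile of the signal lay between 173 and 557. No spot was saturated. All 10 hepatocyte markers were well above background on all 28 arrays. Markers of sinusoidal endothelium and of Kupffer cells had their highest mean in HR, at 0.36 and 0.31 after each gene was centred over the 28 livers, against -0.22 and -0.24 in HFD. In whole liver, fewer cells of a type and less RNA per cell cannot be told apart.

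The promoters of members were searched for motifs of the factors known to regulate these genes. RefSeq promoters (build GRCm38.p6, 250 bases before to 50 after the start) were found for 69 of the 84 members. The motifs searched, on both strands, were the NRF1 core (GCGCA, then any base, then GCGC), the ETS core CCGGAAG bound by GABP, the YY1 core AAGATGGCG, and the estrogen-related receptor (ERR) site TCAAGGTCA. The NRF1 core was in 17 of 69 member promoters (24.6%), against 5.19% of 27025 genes with a promoter. The ETS core was in 16 member promoters (23.2% against 9.93%), the YY1 core in 8 (11.6% against 1.64%) and the ERR site in 2 (2.9% against 0.466%). At least 1 of these motifs was in 35 member promoters, or 50.7%, against 15.5% of all genes. No motif overlapped another in the windows printed. Sdhd is shown because it holds 3 of the 4 motifs, and Ndufs7 for its YY1 core. Cox6b1 with Cox6b2 and Cox8a with Cox8b are shown as pairs of isoforms. Their differences between groups were unlike in size or sign, and the isoforms of a pair were not tested against each other. Each promoter is written 5′ to 3′ on the gene's strand with motifs in capitals.
Sdhd promoter, chr9:50603800-50604099, minus strand: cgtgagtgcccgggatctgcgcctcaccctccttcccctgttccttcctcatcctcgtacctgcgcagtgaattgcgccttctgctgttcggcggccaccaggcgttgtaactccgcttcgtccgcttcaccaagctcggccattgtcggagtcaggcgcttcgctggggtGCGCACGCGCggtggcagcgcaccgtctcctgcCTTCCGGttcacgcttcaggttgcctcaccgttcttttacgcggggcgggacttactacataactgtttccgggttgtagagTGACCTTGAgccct
Ndufs7 promoter, chr10:80249199-80249498, plus strand: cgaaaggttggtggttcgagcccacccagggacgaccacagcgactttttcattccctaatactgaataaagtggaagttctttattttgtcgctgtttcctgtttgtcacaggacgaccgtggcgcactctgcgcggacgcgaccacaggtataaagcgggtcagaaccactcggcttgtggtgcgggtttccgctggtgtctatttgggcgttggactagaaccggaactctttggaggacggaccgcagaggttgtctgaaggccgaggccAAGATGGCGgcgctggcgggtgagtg
Cox6b1 promoter, chr7:30626065-30626364, minus strand: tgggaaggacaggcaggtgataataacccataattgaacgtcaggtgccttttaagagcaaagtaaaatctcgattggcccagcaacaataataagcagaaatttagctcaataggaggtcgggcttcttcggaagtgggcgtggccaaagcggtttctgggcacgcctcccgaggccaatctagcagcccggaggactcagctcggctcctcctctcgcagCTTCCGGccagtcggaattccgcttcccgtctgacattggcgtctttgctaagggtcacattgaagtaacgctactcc
Cox6b2 promoter, chr7:4753045-4753344, minus strand: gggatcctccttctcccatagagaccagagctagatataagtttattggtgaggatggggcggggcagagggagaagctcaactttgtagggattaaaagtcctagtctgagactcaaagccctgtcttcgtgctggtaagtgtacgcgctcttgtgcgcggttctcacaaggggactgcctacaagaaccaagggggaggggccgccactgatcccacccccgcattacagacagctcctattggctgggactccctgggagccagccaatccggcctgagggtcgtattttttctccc
Cox8a promoter, chr19:7217567-7217866, minus strand: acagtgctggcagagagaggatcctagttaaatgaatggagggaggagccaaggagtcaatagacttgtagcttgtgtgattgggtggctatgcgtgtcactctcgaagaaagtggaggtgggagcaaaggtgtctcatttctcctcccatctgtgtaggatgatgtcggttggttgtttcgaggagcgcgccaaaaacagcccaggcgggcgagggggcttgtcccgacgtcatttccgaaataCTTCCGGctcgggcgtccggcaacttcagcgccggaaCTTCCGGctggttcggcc
Cox8b promoter, chr7:140900397-140900696, minus strand: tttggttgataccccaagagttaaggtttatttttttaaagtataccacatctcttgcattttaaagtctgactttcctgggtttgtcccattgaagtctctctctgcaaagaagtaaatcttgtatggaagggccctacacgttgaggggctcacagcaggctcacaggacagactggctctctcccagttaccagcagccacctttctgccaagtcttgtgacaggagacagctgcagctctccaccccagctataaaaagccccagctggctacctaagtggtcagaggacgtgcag
Sdhd, the membrane anchor of succinate dehydrogenase, held the NRF1 core from base -79 to -70 before the start, the ETS core on the other strand from -46 to -40, and the ERR site on the other strand from 37 to 45. The YY1 core of Ndufs7, a core subunit of complex I, lay from base 25 to 33. Cox6b1, the broadly expressed form of its family, held 1 ETS core from base -28 to -22, and Cox8a held 2, from -5 to 2 and from 33 to 39. None of the 4 motifs was in the window of Cox6b2 or of Cox8b, which says only that these letters are not in it. Motifs were also in members that did not vary with the rest between livers: Atp5k, which went most against the other members, held both the NRF1 and the ETS core, and Dmac2, which did not follow them, held the YY1 core. A match is a description of the letters and not of binding.

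No member passed an adjusted p of 0.05 in any of the 10 comparisons between 2 diets, by limma with Benjamini-Hochberg adjustment over 21862 genes. The share of all genes that passed was 0.114% for HFD against standard diet, 0% for HQ and for HQR against HFD, and 0.00915% for HR against HFD. Among the other comparisons it was 0% for HQ against HR, for HQR against HQ and for HQR against HR, 0.0366% for HQ, 0.0549% for HR and 0.0503% for HQR against standard diet. A test over all 5 groups together called 0.105% of all genes and no member. In that test, Ndufs3 had the smallest p of the members (0.00298, adjusted 0.4995), followed by Cox8b (0.0034, adjusted 0.531). At an unadjusted p under 0.05, the comparison of HFD with standard diet held 1 member higher and 1 lower, against 3.34% and 2.79% of all genes. HQ held 0 higher and 2 lower than HFD (0.782% and 1.34% of all genes), and HQR held 0 higher and 1 lower (0.485% and 0.878%). HR held 3 higher and 5 lower than HFD (1.89% and 3.02%). On simulated data made from these arrays for HFD against standard diet, the same fit called 35 of 100 genes changed by 2-fold and 87 of 100 changed by 4-fold in 1 simulation of 21676 genes, and with them 10 genes that had not been changed. The simulated noise was independent between genes, unlike these arrays, where genes share variation by slide. The rates hold for that setting only.

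The members as a whole lay a little lower in the supplemented groups than in HFD, by less than the spread between livers. The median difference of the 82 members was 0.07 for HFD against standard diet, where 30 were below 0 (all genes: median -0.04, 55.4% below 0). It was -0.18 for HQ against HFD, with 68 of 82 below 0 (all genes: -0.00 and 50.9%). It was -0.13 for HR against HFD, with 59 below 0 (all genes: 0.01 and 47.9%), and -0.22 for HQR against HFD, with 74 below 0 (all genes: 0.05 and 41.5%). The 3 comparisons with HFD share their HFD livers. Members of a complex vary together, so their counts are not counts of independent genes. Without the 4 members that are not subunits, the medians of the 78 others were 0.09, -0.20, -0.14 and -0.22.

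**Figure D1:**
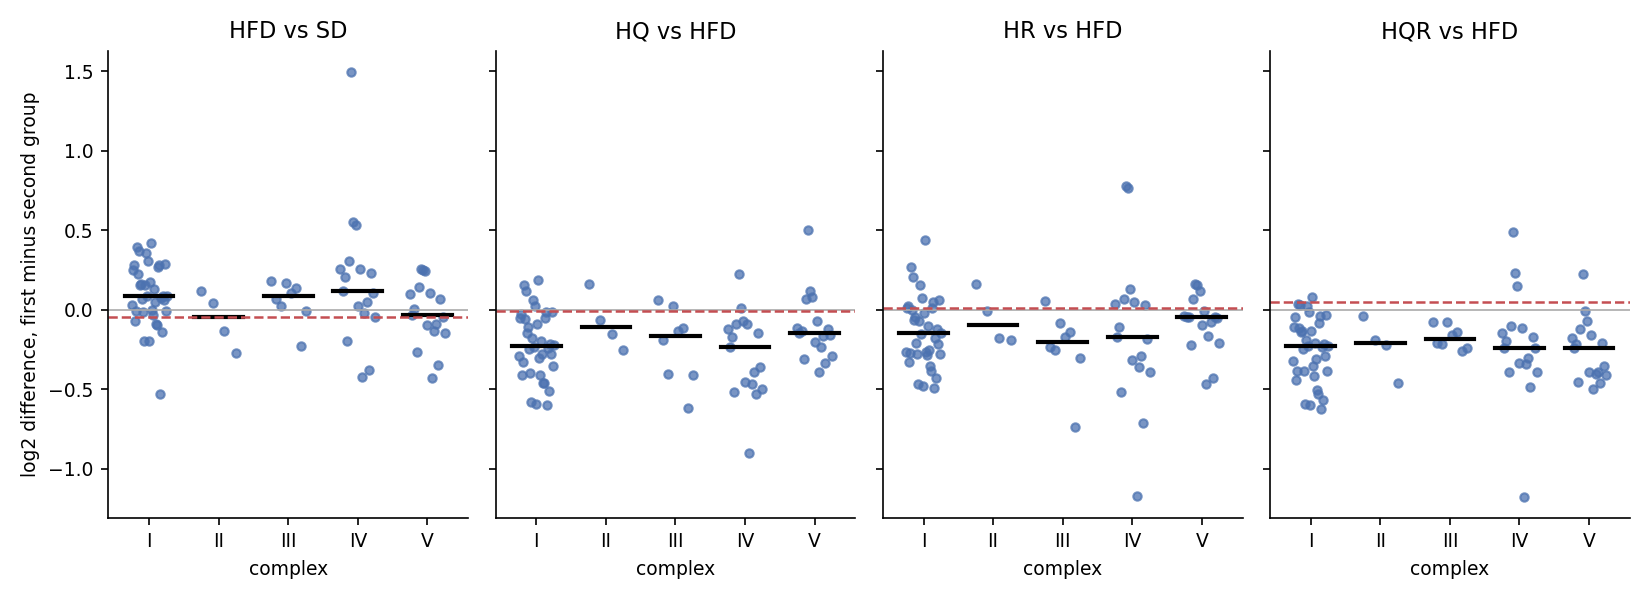
Log2 difference of each of the 82 members (points) by complex in 4 comparisons, with the median of each complex (black line) and the median of all 21862 genes (dashed red line). Most members of each complex lie below 0 in HQR against HFD, and Cox8b stands apart in complex IV at 1.50 for HFD against standard diet.

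By complex, the medians for HQR against HFD were alike in size: -0.22 over 36 members of complex I, -0.21 over 4 of complex II, -0.18 over 8 of complex III, -0.24 over 17 of complex IV and -0.24 over 17 of complex V. In that comparison 32, 4, 8, 14 and 16 of them were below 0. For HQ against HFD the medians ran from -0.11 in complex II to -0.23 in complexes I and IV. For HR against HFD they ran from -0.05 in complex V to -0.20 in complex III. For HFD against standard diet they ran from -0.04 in complex II to 0.12 in complex IV. No error is given for these medians, since members of a complex are not independent of each other.

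The mean of the 82 members in each liver, each gene centred over the 28 livers, shows where those medians come from. In standard diet it was -0.46, -0.12, 0.48, 0.52 and -0.17. In HFD it ran from -0.20 through a median of 0.07 to 0.65. In HQ it was -0.29, -0.92, 0.10, 0.32 and 0.44. In HR it ran from -0.22 through -0.04 to 0.38, and in HQR from -0.76 through -0.09 to 0.35. The 5 groups overlapped, and 1 liver of HQ and 1 of HQR lay below all the others. HQ replicate 2 was the lowest of the 28 livers in 43 of 82 members and HQR replicate 1 in 18, while HFD replicate 3 was the highest in 40. Without HQ replicate 2, the median for HQ against HFD was 0.04 in place of -0.18. Without HQR replicate 1, the median for HQR against HFD was -0.09, and without HFD replicate 3 the median for HR against HFD was -0.01.

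**Figure D2:**
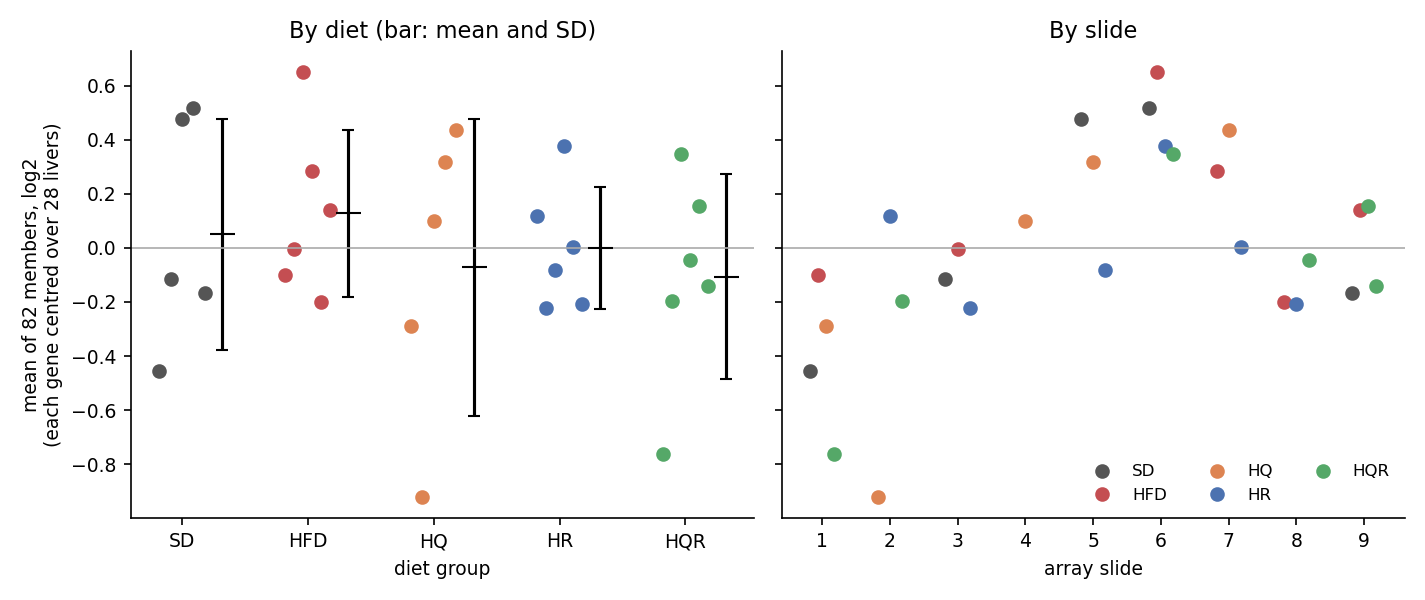
Mean of the 82 members in each of the 28 livers (log2, each gene centred over all livers), by diet with mean and SD on the left, and by array slide with the diet as colour on the right. The 5 diet groups overlap, the lowest liver is HQ replicate 2 at -0.92, and the 4 livers of slide 6 lie between 0.35 and 0.65.

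The array slide held 65.1% of the variance of this mean and the diet group 5.70%. For the mean of all genes the shares were 74.6% and 2.17%. Because slides hold several diets, differences were also taken within slides. A shared slide held 1 liver of each group compared, except slide 9, which held HQR replicates 5 and 6. These values thus mostly set 1 liver against 1 liver, over members that vary together, and are not differences between replicated groups. Within the 4 slides that hold both, the median for HFD against standard diet was 0.37, 0.16, 0.11 and 0.30, beside -0.06, -0.17, -0.12 and -0.11 for all genes. For HR against HFD it was -0.28, -0.25, -0.29 and 0.00, beside 0.09, -0.02, 0.07 and -0.07 for all genes. For HQR against HFD it was -0.78, -0.27, 0.14 and -0.10, beside 0.11, 0.05, -0.13 and -0.13 for all genes. HQ and HFD shared 2 slides, with medians of -0.19 and 0.15, beside 0.05 and 0.20 for all genes. Members lay above all genes on each shared slide for HFD against standard diet and below them on both for HQ against HFD. For HR they lay below all genes on 3 of 4 slides, and for HQR on 2 of 4. With slide as a block in the model, the medians were 0.13, -0.21, -0.20 and -0.16 for HFD against standard diet and for HQ, HR and HQR against HFD. In that fit 3 members were higher and 11 lower in HR than in HFD at an unadjusted p under 0.05, where 11.1% of all genes were, and no member passed after adjustment. What sets the differences between slides was not tested.

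Within groups, most members went up and down together from liver to liver. After group means were removed, the correlation of a member with the mean of the other members over the 28 livers had a median of 0.90 over the 77 members with no missing value. For all genes the correlation with the mean of the members had a median of -0.24. Values on 1 array share its slide, labelling and scaling, so these correlations describe arrays as well as livers. Pairs within a complex had a median correlation of 0.71 and pairs across complexes 0.62. The highest was Ndufs4, a subunit of complex I, at 0.98. Low values were those of Atp5k, subunit e of the ATP synthase (-0.68), Cox4i2 (-0.51), Cox6a2 (-0.30), Dmac2 (-0.07) and Cox7c (-0.06). Cox8b was at 0.20. Among these, Cox4i2, Cox6a2 and Cox8b are isoforms known for lung, muscle, or muscle and brown fat.

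**Figure D3:**
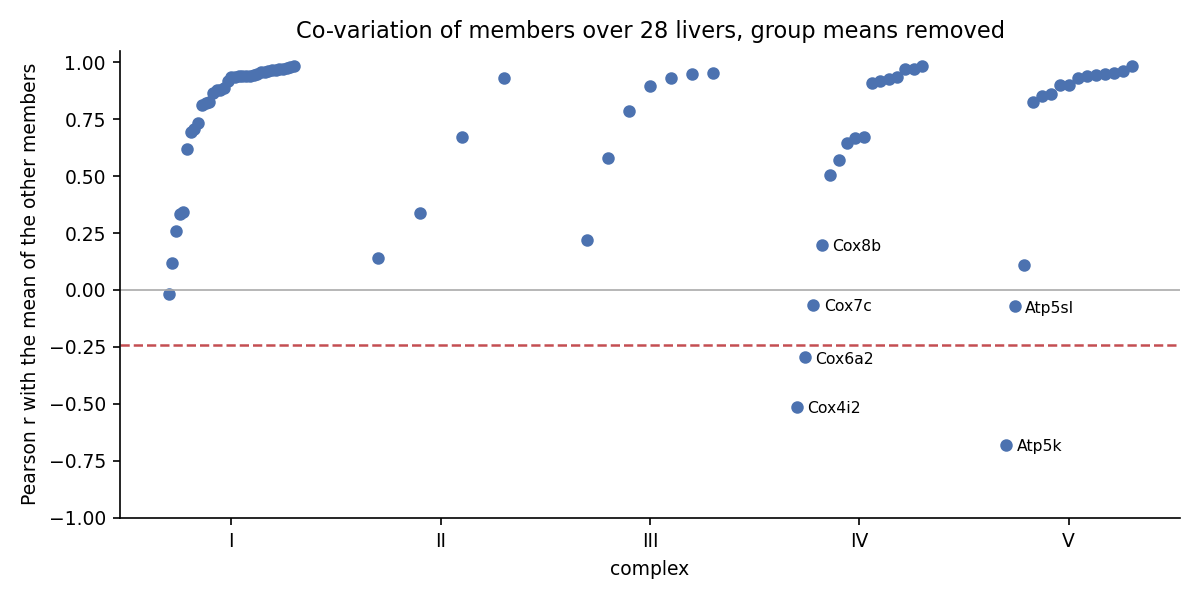
Pearson correlation of each of 77 members with the mean of the other members over 28 livers after removal of group means, by complex, with the median of all genes as a dashed line. Most members lie above 0.5, and the 6 named members lie below 0.25 (Atp5sl is the listed name of Dmac2).

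The mean of the members went with the mean of the 10 hepatocyte markers over the 28 livers, with Pearson's r of 0.75 and Spearman's rho of 0.78. Pearson's r was 0.73 without the 2 livers farthest from the median of the markers, 0.82 within groups and 0.47 within slides. It was 0.46 with the 75th percentile of the signal, -0.56 with the mean of all genes and -0.22 with the share of probes well above background, which makes 4 relations in all. By group, the mean of the hepatocyte markers was 0.25 in standard diet, 0.05 in HFD, -0.06 in HQ, -0.16 in HR and -0.04 in HQR. The mean of the members and that of the markers come from the same arrays and the same scaling. Their part in the differences between groups was not tested.

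**Figure D4:**
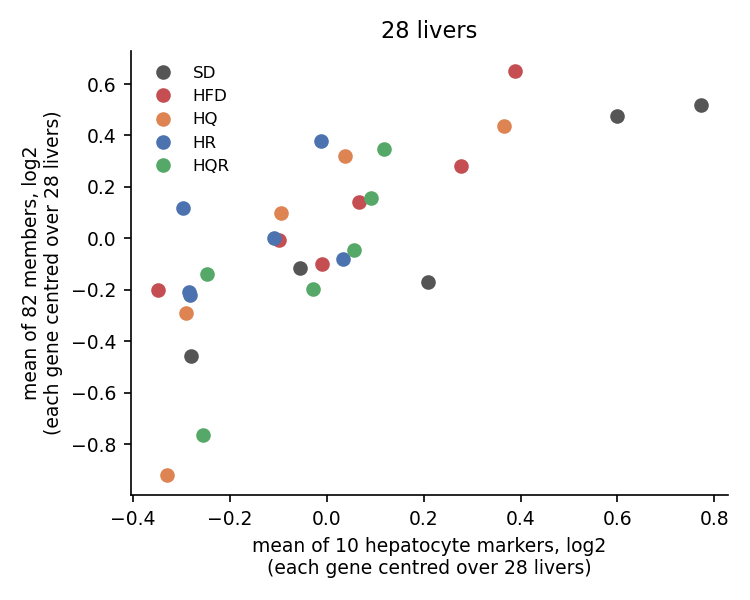
Mean of the 82 members against the mean of 10 hepatocyte markers in each of 28 livers, coloured by diet (log2, each gene centred over all livers). The points run from low to high together, with r of 0.75. The diets overlap along the line, and averaged over the livers of a group the markers are highest in standard diet and lowest in HR.

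In complex I, the core subunit Ndufs3 was lower in HQ than in each other group. Its level in HQ was 4.63, 4.80, 5.29, 5.57 and 4.75, and in standard diet 5.51, 5.42, 5.40, 5.75 and 5.66. In HFD it ran from 5.42 through 5.58 to 5.80 (lowest, median and highest), in HR from 5.20 through 5.35 to 5.44, and in HQR from 5.36 through 5.54 to 5.60. In 3 of the 5 HQ livers it was below every liver of the other groups, and the highest HQ liver lay within the range of HFD. The difference between HQ and HFD was -0.59 ± 0.15 (SE), with an unadjusted p of 0.000396 and an adjusted p of 1.00 by limma. It was -0.54 ± 0.15 between HQ and standard diet (adjusted p 0.538) and 0.51 ± 0.15 between HQR and HQ (adjusted p 1.00). Within the 2 slides that hold HQ and HFD it ran from -1.17 to -0.73. Over the settings other than leaving out a liver, the difference between HQ and HFD ran from -0.68 to -0.47, with adjusted p from 0.586 to 1.00. Without 1 liver it ran from -0.73 to -0.50, with a lowest adjusted p of 0.165 by limma. Of all members Ndufs3 had the largest share of variance between groups, 56.7%, where the median member had 8.76%. Its probe lies at chr2:90734839-90734898 on the minus strand (mm9).

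The accessory subunit Ndufa8 did not overlap between HR and HFD. It ran from 5.04 through 5.19 to 5.32 in HR and from 5.44 through 5.59 to 6.06 in HFD. Of all genes, 0.329% were lower in HR with no overlap, and Ndufa8 was the 1 member among them. The difference was -0.49 ± 0.20 (SE), with an adjusted p of 0.945 by limma, and its other probe gave -0.63. In standard diet the level was 5.41, 5.24, 5.66, 6.00 and 5.42. Ndufa8 differed between HQR and HFD by -0.35 ± 0.20 (adjusted p 0.987), and there the groups overlapped.

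The accessory subunits Ndufb4 and Ndufc2 were lower in HR than in HFD, with differences of -0.48 ± 0.20 and -0.35 ± 0.16, both at an unadjusted p under 0.05 and with adjusted p of 0.965 and 0.985 by limma. For the accessory subunit Ndufb9, 1 liver of HFD and 1 of HQ had no value because the scanner software marked the spot as an outlier. The other HQ livers were at 7.56, 7.76, 7.59 and 7.99, and HFD ran from 7.84 through 8.03 to 8.18. The difference was -0.28 ± 0.14 (adjusted p 1.00 by limma), and the groups overlapped.

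Ndufv1, which binds NADH and the flavin where electrons enter complex I, was at 3.69, 4.13, 4.91, 4.83 and 4.15 in standard diet and ran from 3.67 through 4.28 to 4.85 in HFD. Its differences from HFD were -0.02 ± 0.29 in HQ, 0.21 ± 0.28 in HR and -0.12 ± 0.28 in HQR, all smaller than their SE. Ndufa4 and Ndufb6 were, with Atp5g1, the members with the largest SD between livers of 1 group, at 1.02, 0.95 and 0.95, where the median member had 0.49 and the median gene 0.48. The level of Ndufa4 was 4.11, 2.02, 5.12, 5.56 and 5.07 in HQ and ran from 3.89 through 4.44 to 5.82 in HFD. The difference was -0.33 ± 0.58 in HQ and -0.62 ± 0.56 in HQR against HFD. Ndufb6, an accessory subunit of the membrane arm, was at 1.55, -0.47, 2.42, 2.78 and 2.40 in HQ and ran from 1.66 through 2.10 to 3.46 in HFD, with a difference of -0.58 ± 0.55. For both genes the groups overlapped.

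In complex II, Sdhb, the iron-sulfur subunit that carries electrons from the flavin to ubiquinone, was at 1.03, 1.17, 1.36, 1.40 and 1.02 in standard diet. It ran from 0.28 through 0.97 to 1.45 in HFD, and the difference was -0.27 ± 0.22. The standard diet livers lay within the range of HFD. The 4 members of complex II differed between HFD and standard diet by -0.27 to 0.12. None of them had an unadjusted p under 0.05 in HFD against standard diet or in a supplemented group against HFD.

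In complex III, Uqcrb, a small subunit at the ubiquinone site, was lower in HR than in HFD. It ran from 4.15 through 4.52 to 5.11 in HR and from 5.06 through 5.17 to 5.89 in HFD, so that 1 HR liver lay within the range of HFD. The difference was -0.73 ± 0.30 (SE), with an adjusted p of 0.945 by limma, and it was below 0 on 3.0 of 4.0 shared slides. The levels of Uqcrb ran from 4.82 to 5.41 in standard diet and from 4.70 to 5.89 in HQR. The Rieske iron-sulfur subunit Uqcrfs1 was at 5.62, 4.19, 5.69, 5.94 and 5.87 in HQ and ran from 5.60 through 5.84 to 6.26 in HFD, a difference of -0.40 ± 0.23 in which HQ replicate 2 was far below the rest.

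In complex IV, Cox8b had the largest difference of all members between HFD and standard diet. Cox8b is the form of subunit VIII known from heart, skeletal muscle and brown fat, and Cox8a is the broadly expressed form. The level of Cox8b was -2.87, -1.92, -1.75, -2.51 and -1.99 in standard diet. In HFD it ran from -1.82 through -0.87 to 1.09. HFD replicate 4 lay within the range of standard diet and the other HFD livers were above it. The difference was 1.50 ± 0.38 (SE), or 2.82-fold, with an unadjusted p of 0.000616 and an adjusted p of 0.195 by limma. It was above 0 on 4.0 of 4.0 shared slides, from 0.69 to 3.60. Without HFD replicate 3, the highest liver, it was 1.14.

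The adjusted p of Cox8b for HFD against standard diet was closest to the threshold with slide as a random block, at 0.0518, and with the replicate block, at 0.0592. It ran from 0.0518 to 0.5003 over the settings other than leaving out a liver. The probe lies at chr7:148084852-148084911 on the minus strand (mm9), and it was well above background on all 28 arrays.

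The mean levels of Cox8b in the supplemented groups lay between those of standard diet and HFD. In HQ the level was -0.57, -1.89, -0.26, -1.84 and -1.47. In HR it ran from -2.53 through -2.02 to -1.17, and in HQR from -2.31 through -1.98 to -1.36. All 3 groups overlapped with HFD. HR differed from HFD by -1.17 ± 0.37 (adjusted p 0.738) and HQR by -1.17 ± 0.37 (adjusted p 0.987), both by limma. HR was below HFD on 4.0 of 4.0 shared slides, from -3.63 to -0.22, and HQR on 4.0 of 4.0, from -2.45 to -0.65. Without HFD replicate 3 the differences were -0.81 and -0.81. These comparisons share the HFD livers with the one against standard diet. Cox8a differed by 0.12 ± 0.39 between HFD and standard diet, by -0.31 ± 0.37 between HR and HFD and by -0.39 ± 0.37 between HQR and HFD.

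**Figure D5:**
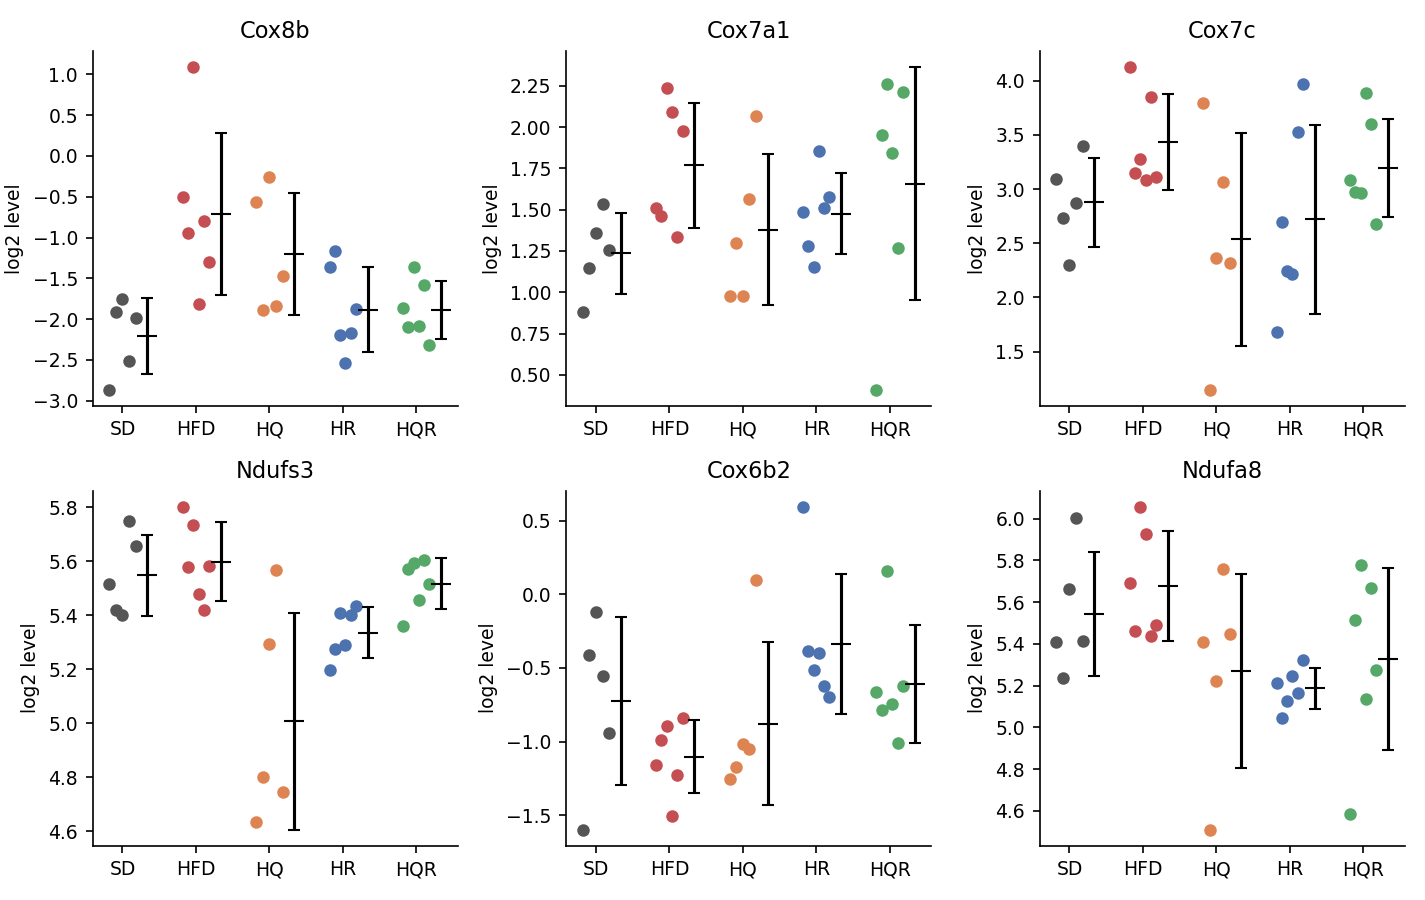
Level of 6 members in each liver by diet (log2 relative to the 75th percentile of the array), with mean and SD beside the points. Cox8b is higher in HFD than in standard diet in all but 1 HFD liver, Ndufs3 is lowest in 3 HQ livers, and Cox6b2 and Ndufa8 do not overlap between HR and HFD.

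Markers of other cell types that carry such isoforms were read beside it. The summed signal of the 8 measured of 9 adipocyte markers, relative to the 75th percentile, was 8.39 to 21.4 in standard diet, 63.6 to 121 in HFD, 26.5 to 101 in HQ, 23.6 to 68.3 in HR and 32.4 to 48.3 in HQR. Of the 8 markers 4 were higher and 4 lower in HFD than in standard diet. Cfd and Cidec, both known in fatty liver too, rose by 5.45 ± 0.58 and 3.19 ± 0.58 (adjusted p 1.4e-05 and 0.0134 by limma). Fabp4 and Lipe differed by 0.10 ± 0.38 and 0.01 ± 0.27. Adipoq, Plin1, Retn and Ucp1 differed by -1.04 ± 0.60, -0.26 ± 0.39, -0.88 ± 0.63 and -0.85 ± 0.54, and none of these 6 passed. Ucp1 was well above background on 15 of 28 arrays. The summed signal of the 11 measured of 12 muscle markers was 1.19 to 3.05 in standard diet and 1.10 to 3.51 in HFD. It reached 5.23 in HQ, 5.46 in HR and 5.72 in HQR. Of these 11 markers 4 were higher and 7 lower in HFD than in standard diet, and none passed. Myh2, a myosin of fast muscle fibres, differed by 0.92 ± 0.38, with an unadjusted p of 0.0235 and an adjusted p of 0.711 by limma. Myh1, another fast myosin, differed by 0.59 ± 0.88 (adjusted p 0.959). Myh2 had a mean below that of HFD in HQ, HR and HQR, by -0.64 ± 0.38, -0.47 ± 0.36 and -0.29 ± 0.36. The muscle markers as a list did not go that way. Of the 11, 6 were higher and 5 lower in HQ than in HFD (median 0.02). In HR 8 were higher and 3 lower (median 0.23), and in HQR 8 and 3 (median 0.14). The part of other cell types in the difference of Cox8b was not tested.

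Cox7a1, the muscle form of subunit VIIa, had the third smallest p of the members between HFD and standard diet. Its probe is printed because its 60 bases span 612 bases of the genome, at chr7:30970337-30970948 on the plus strand (mm9), and so lie on more than 1 exon.
Cox7a1 probe: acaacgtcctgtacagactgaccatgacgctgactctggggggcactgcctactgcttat
The level was 0.88, 1.15, 1.36, 1.54 and 1.26 in standard diet and ran from 1.33 through 1.74 to 2.24 in HFD. The upper livers of standard diet lay within the range of HFD. The difference was 0.53 ± 0.27 (SE), with an adjusted p of 0.846 by limma, above 0 on 4.0 of 4.0 shared slides. Cox7a2, the form of most tissues, differed by -0.05 ± 0.36. In HQR the level of Cox7a1 ran from 0.41 to 2.26, and the difference from HFD was -0.11 ± 0.26.

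Cox6b2, the form of subunit VIb known from testis, was higher in HR than in HFD with no overlap. It ran from -0.70 through -0.46 to 0.59 in HR and from -1.51 through -1.07 to -0.84 in HFD. Of all genes, 0.0595% were higher in HR with no overlap, and Cox6b2 was the 1 member among them. The difference was 0.76 ± 0.26 (SE), with an adjusted p of 0.803 by limma, and it was 0.50 to 0.88 on the shared slides. In standard diet the level was -1.60, -0.41, -0.12, -0.55 and -0.94, which overlapped with both groups. HQR differed from HFD by 0.49 ± 0.26 (adjusted p 0.987). Cox6b1 differed by -0.39 ± 0.40 between HR and HFD. Between HQ and HFD, HQR and HFD, and HFD and standard diet, no member was without overlap in either direction. The share of all genes without overlap there was 0.0732% higher and 0.0915% lower, 0.0229% and 0.0686%, and 0.595% and 0.736%.

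Cox6a2, the muscle form of subunit VIa, was the member with the smallest p between HR and standard diet. Its level was -3.08, -3.44, -3.91, -3.10 and -2.76 in standard diet and ran from -3.30 through -2.27 to -1.33 in HR. The groups overlapped, with most HR livers above all livers of standard diet. The difference was 0.99 ± 0.35 (adjusted p 0.541 by limma), and 0.78 ± 0.33 against HFD (adjusted p 0.956). Cox6a1, the broad form, differed by -0.18 ± 0.48 between HR and HFD.

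Cox4i2, the lung form of subunit IV, was well above background on 18 arrays, and its differences from HFD were -0.07 ± 0.42 in HQ, 0.04 ± 0.40 in HR and 0.15 ± 0.40 in HQR. Cox4i1, the broad form, was at 5.41, 6.50, 7.60, 7.54 and 6.45 in standard diet and ran from 6.08 through 6.82 to 7.70 in HFD, with a difference of 0.10 ± 0.42. For HQ against HFD it was -0.52 ± 0.45, with 1 HQ liver without a value. None of these differences was larger than its SE by enough to reach an unadjusted p of 0.05.

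Cox7c, a small subunit of complex IV, was lower in HQ than in HFD. It was at 3.79, 1.15, 2.37, 3.06 and 2.31 in HQ and ran from 3.08 through 3.21 to 4.13 in HFD. HQ replicate 1 lay within the range of HFD and the other HQ livers below it. The difference was -0.90 ± 0.39 (SE), with an adjusted p of 1.00 by limma, and -0.55 without HQ replicate 2. HR differed from HFD by -0.71 ± 0.37.

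In complex V, Atp5b, the catalytic beta subunit, was at 6.34, 6.20, 6.84, 6.66 and 6.44 in standard diet and ran from 6.07 through 6.39 to 6.80 in HFD, a difference of -0.09 ± 0.20. HQ, HR and HQR differed from HFD by -0.11 ± 0.20, -0.05 ± 0.19 and -0.21 ± 0.19. The genes Atp5g1, Atp5g2 and Atp5g3 encode the same mature c subunit of the rotor with different import sequences. Between HQR and HFD they differed by -0.35 ± 0.52, -0.39 ± 0.50 and -0.45 ± 0.35, and between HFD and standard diet by -0.13 ± 0.54, 0.10 ± 0.52 and -0.10 ± 0.37. No member of complex V had an unadjusted p under 0.05 in HFD against standard diet or in a supplemented group against HFD. Atp5k, which went against the shared movement of the members, differed by 0.50 ± 0.38 between HQ and HFD and by -0.43 ± 0.38 between HFD and standard diet.

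Where a member had more than 1 kept probe, the probes often disagreed. For 29 such members, the sign of the difference between HFD and standard diet was not the same in all probes for 16. For HQ, HR and HQR against HFD this held for 9, 13 and 7.

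Around the complexes, other genes of the pathway were read in lists of known roles, and no list had a gene past the adjusted threshold in HFD against standard diet or in a supplemented group against HFD. Of the 47 assembly factors 43 were measured. Their medians were 0.10 for HFD against standard diet and -0.12, -0.14 and -0.19 for HQ, HR and HQR against HFD. Pet100, which helps to assemble complex IV, differed by 0.69 ± 0.27 between HFD and standard diet (adjusted p 0.643 by limma) and by -0.88 ± 0.25 between HR and HFD (adjusted p 0.694).

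The 17 transcriptional regulators had a median of -0.13 for HFD against standard diet, with 12 below 0. Ppargc1a, the coactivator of mitochondrial genes, differed by -0.97 ± 0.29 (SE), with an adjusted p of 0.42 by limma. Esrra, a receptor it works with, differed by -0.44 ± 0.19 (adjusted p 0.717). Both were lower in HFD, while the median of the members was above 0. For HQ, HR and HQR against HFD the regulators' medians were 0.06, 0.04 and 0.02.

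The list of mitochondrially encoded subunits held 26 names, with each gene entered under alternative names. Of these genes, COX2 and CYTB were measured. They differed by -0.48 ± 0.29 and -0.54 ± 0.28 between HFD and standard diet, by 0.53 ± 0.29 and 0.41 ± 0.28 between HQ and HFD, by 0.11 ± 0.27 and -0.04 ± 0.27 between HR and HFD, and by 0.27 ± 0.27 and 0.31 ± 0.27 between HQR and HFD. Both signs were opposite to the median of the nuclear members in 3 of these comparisons, and in HR against HFD that of COX2 was. Neither gene passed in any of them (for HFD against standard diet and HQ against HFD, adjusted p 0.897, 0.851, 1.00 and 1.00 by limma).

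The 13 genes of the tricarboxylic acid cycle had medians of -0.07, 0.03, 0.04 and -0.18 for HFD against standard diet and for HQ, HR and HQR against HFD. The 17 measured of 19 electron carriers and ubiquinone synthesis genes had 0.06, -0.01, -0.04 and -0.02, and the 14 carriers and uncoupling proteins -0.06, -0.08, -0.02 and -0.15. Among the last, Slc25a10, the dicarboxylate carrier, differed by 0.64 ± 0.18 between HFD and standard diet (adjusted p 0.324 by limma) and by -0.46 ± 0.17 between HR and HFD (adjusted p 0.928). The list of other genes of the complexes, outside the name pattern, held 10 names, some of them for the same gene. Its 5 measured genes had medians of -0.08, 0.03, 0.10 and -0.29.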

How the data were processed

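Liver RNA of 28 mice was hybridised to 1-colour (Cy3) Agilent arrays, 1 per liver. Per the file headers, the deposited intensity of each spot came from Agilent Feature Extraction 10.5.1.1, which subtracted background and detrended it. Probe positions are on mm9. The authors' deposited value table holds 1 score per probe, with a mean of 0 and an SD of 1 on each array. It was used as an alternative only, multiplied by 3.25, the median SD of the log2 signals. Per the file headers the software also set flags, used for outliers and for probes well above background.

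The log2 of each intensity was taken, replicate spots were averaged by probe, and each array's 75th percentile was subtracted. Probes well above background on at least 5 arrays were kept (32095 of 41174), and the brightest probe on average stood for a gene. All 28 arrays were fitted together with limma 3.58.1 in R 4.3.3, with two-sided tests and Benjamini-Hochberg adjustment over 21862 genes; a gene passed at an adjusted p under 0.05. The fit was tested on simulated data. The number of arrays limits the precision. Each array is of a separate mouse. Replicate numbers paired livers by their deviations (all correlations over 0.1) for HFD and standard diet only (5 pairs, 0.217 to 0.698). The members and lists were chosen with earlier results of these data known. Values in every liver were given by a rule: the 3 members with the smallest p in HFD against standard diet and in each supplemented group against HFD, 1 core member per complex, the isoform families and the 3 members with the largest SD. Cox6a2 in HR against standard diet, Uqcrb, Ndufb4, Ndufc2, Atp5k and the genes named outside the members were singled out after their values were seen. Some results are not reported here. The alternatives were other scalings, background corrections, filters, probes, variance models, blocks for slide, scan day and replicate number, and leaving out each liver or slide 8.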

Additional observations from a re-analysis of the deposited data

Results flagged for a closer look

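In 150 sets of a diet group and a measure (the mean of all members, of each complex, and each named member), 9 held a liver apart from the rest of its group; chance gives about 1 in 20. The mean of complex IV in HFD replicate 3 was 0.65, and the next liver was at 0.18. HQ replicate 2 stood below its group in Uqcrfs1 (4.19, next 5.62), Atp5b (5.46, next 6.36) and Cox7a2 (2.46, next 4.04). Cox6b2 had a high liver in 3 groups: HQ replicate 5 at 0.10 (next -1.02), HR replicate 1 at 0.59 (next -0.39) and HQR replicate 3 at 0.16 (next -0.62). Cox6a2 was at -1.79 in HFD replicate 5 (next -3.01), and Cox4i2 at -2.62 in HR replicate 6 (next -3.81); both livers were hybridised on slide 8.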

How the results depend on the processing

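No member passed in any of the 10 comparisons under 15 alternatives and 28 fits without 1 liver each, nor in the test over 5 groups, which was not run on 2 groups alone. The replicate block gave 0 members called in each comparison and changed no call. Over the alternatives other than leaving out a liver, the median difference of members ran from 0.06 to 0.15 for HFD against standard diet, from -0.28 to -0.04 for HQ, from -0.20 to -0.01 for HR and from -0.29 to -0.14 for HQR against HFD. Without 1 liver it ran from -0.07 (without standard diet replicate 1) to 0.21, from -0.34 to 0.04 (without HQ replicate 2), from -0.22 to -0.01 and from -0.31 to -0.09. With slide as a fixed block the medians for HQ against HR, HQR against HQ and HQR against HR were 0.01, 0.03 and 0.03, in place of -0.08, -0.07 and -0.09, and with array weights the first was 0.12; the cause was not tested. Among the member differences recomputed under all alternatives, 1 changed sign: Ndufb9 in HQ against HFD was 0.0039 with the authors' deposited value table, which keeps the spots marked as outliers. The count of all genes called for HFD against standard diet, 25, ran from 10 (only those 2 groups fitted) to 81 (slide as a random block). Signal over background limits Cox4i2, Cox7b2 and Cox8c.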
